A study of Mus musculus with 14 samples.

Results

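The aryl hydrocarbon receptor pathway was followed here through 5 genes: the receptor Ahr, its repressor Ahrr, the partner proteins Arnt and Arnt2, and the target gene Nqo1. The members were all probes of the array whose only gene symbol in the platform annotation is one of these 5. They came to 5 of 15094 named genes and 6 probes of 21582, since Nqo1 has 2 and each other gene has 1. The set was selected on measured values: it was assembled around Ahrr, whose probe had the smallest p of all probes between alcohol-fed and pair-fed fetuses. The differences of the members in that comparison are therefore a description, and no test of them is given.

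Ahr is a ligand-activated transcription factor of the bHLH-PAS family that waits in the cytosol in a chaperone complex. On binding a ligand such as a dioxin, a polycyclic hydrocarbon or a tryptophan metabolite it enters the nucleus, pairs with Arnt and binds the xenobiotic response element, a short DNA sequence in front of genes of foreign compound metabolism. Ahrr is induced by the receptor and in turn competes with it for Arnt and for the same DNA element, which closes a negative feedback loop.

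Fetal RNA from C57Bl6 mice was hybridised to 14 arrays of 2 colours, 7 for each group. Mothers of the alcohol-fed group had ethanol at about 180 to 200 mg/dl on gestational days 15 to 18 (4 days in the treatment protocol, 5 in the sample titles), while mothers of the pair-fed group were given maltose dextrin instead. The fetuses were delivered on gestational day 19, and all mothers had fed freely until gestational day 14. Each array carried a sample in Cy5 and, in Cy3, the same reference, total RNA pooled from 7 freely fed animals, which the labels call a weight matched and a universal control. The labels name no tissue. They do not say whether the 7 samples within a group had different mothers, so a p-value here reflects sample-to-sample spread that could be technical. In whole-sample RNA, fewer cells of a type and less RNA per cell cannot be told apart.

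Each value is read as a log2 ratio of sample to reference. Scale, centring and direction are not stated: log2 is inferred from the values, and sample over reference is the likely direction from the order of the channels. If it runs the other way, every higher and lower below exchanges. Deposited array medians ran from -0.43 to 0.63, so each array was centred on its own median, and all values below are centred unless called deposited. Between 2.57% and 14.6% of an array's values were placeholders, that is exact zeros or the highest value of the table. An array held 549 to 3133 exact zeros, while a value a few thousandths away from 0 typically occurred 3.5 to 9.5 times. Pair-fed 6 and 7 and alcohol-fed 6 held the most placeholders. A zero is treated below as a missing value, and no source used here says why it was written.

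The 250 bases in front of the Ahrr start site, RefSeq build GRCm38.p6, chr13:74292332-74292581, minus strand, are shown because Ahrr is both the member with the widest group difference and a known target of the receptor. Capitals mark GCGTG, the core of the xenobiotic response element, searched on both strands.

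Ahrr: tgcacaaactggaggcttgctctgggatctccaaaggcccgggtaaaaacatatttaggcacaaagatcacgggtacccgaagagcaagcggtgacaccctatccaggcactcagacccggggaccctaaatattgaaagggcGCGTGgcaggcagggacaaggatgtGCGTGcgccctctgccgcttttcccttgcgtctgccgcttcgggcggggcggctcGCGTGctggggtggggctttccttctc

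The core occurred 3 times in this window, each time on the strand of the gene, with first bases 107, 82 and 27 bases before the start. Of 32851 RefSeq promoter windows of the same length, 28.2% held it at least once and 2.77% at least 3 times. It occurred 1 time in the window of Arnt and 0 times in those of Arnt2 and Nqo1. No window was matched for Ahr. A letter match is a description of the sequence and not a measured binding site.

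Ahrr, the repressor, lay far below the reference in alcohol-fed fetuses and near or above it in pair-fed fetuses, on the 8 arrays that gave a value. In the alcohol-fed group its log2 ratio was -3.61 on array 2, -6.997 on array 4, -4.11 on array 5 and -4.48 on array 6. In the pair-fed group it was -0.07 on array 1, 3.33 on array 3, 0.29 on array 5 and 5.34 on array 6. The groups did not overlap, and a gap of 3.54 on the log2 scale separated the highest alcohol-fed from the lowest pair-fed array. As deposited, before centring, all 4 pair-fed values were above 0, from 0.31 to 5.17. The remaining 6 arrays, alcohol-fed 1, 3 and 7 and pair-fed 2, 4 and 7, held an exact 0, and none held the table's highest value.

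The mean log2 ratio of Ahrr was -4.80 ± 1.51 (SD, n = 4) in alcohol-fed and 2.22 ± 2.58 (SD, n = 4) in pair-fed fetuses. The difference, alcohol-fed minus pair-fed, was -7.02 ± 1.16 (limma SE, n = 4 and 4), a 130.0-fold lower ratio. It was the widest of 20876 tested probes. The next were an unnamed probe at -4.65 and Akr1c12, an aldo-keto reductase gene, at -3.97. Limma called 0 of the 20876 probes in this comparison at an adjusted p under 0.05, that is 0% of them, and 881 had an unadjusted p under 0.05 where chance gives 1043.8. Ranges of the groups did not overlap for 24 probes, 0.115% of those tested. The same held for 4 of the 98 probes with 4 values in each group, 4.08%.

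Probes with few values were more variable in general. The median within-group SD was 0.89 among the 14666 probes with 14 values and 1.90 among the 98 with 4 values in each group, while for Ahrr it was 2.11. The median difference between the groups also moved, from 0.04 at 14 values to -0.49 at 4 and 4. Of the latter 98 probes only Ahrr differed by at least 4 on the log2 scale. Without 1 array the Ahrr difference ran from -5.98 (without pair-fed 6) to -7.79 (without pair-fed 1). When exact zeros were kept as measured ratios it was -4.04, with group means of -2.79 and 1.24. The pair-fed mean rested on pair-fed 6 more than on any other array: without it the mean was 1.18. The part that missing values play in the size of this difference was not tested beyond these settings.

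**Figure D1:**
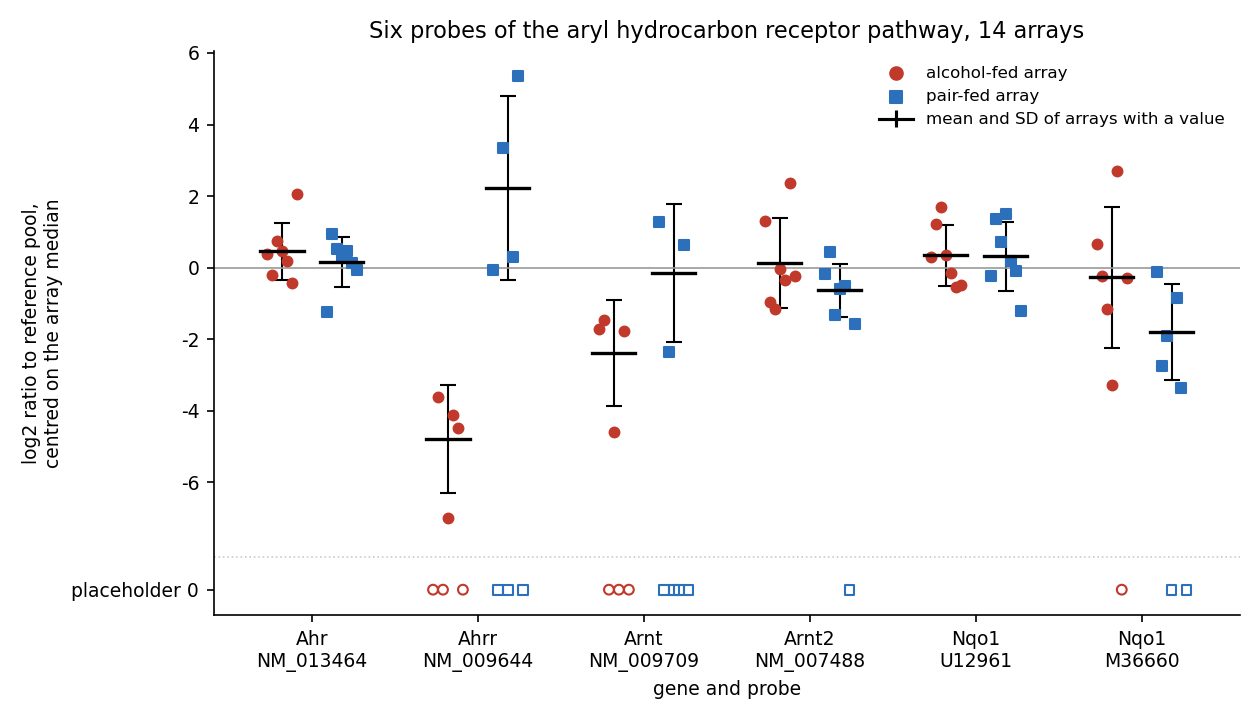
Centred log2 ratio to the reference pool of the 6 member probes on each of 14 arrays, with alcohol-fed arrays as circles, pair-fed arrays as squares, bars for the mean and SD over arrays with a value, and open symbols below the dotted line for arrays with a placeholder of 0. Ahrr is the probe whose groups do not overlap, with means of -4.80 and 2.22, and Ahrr and Arnt have 6 and 7 open symbols.

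**Figure D2:**
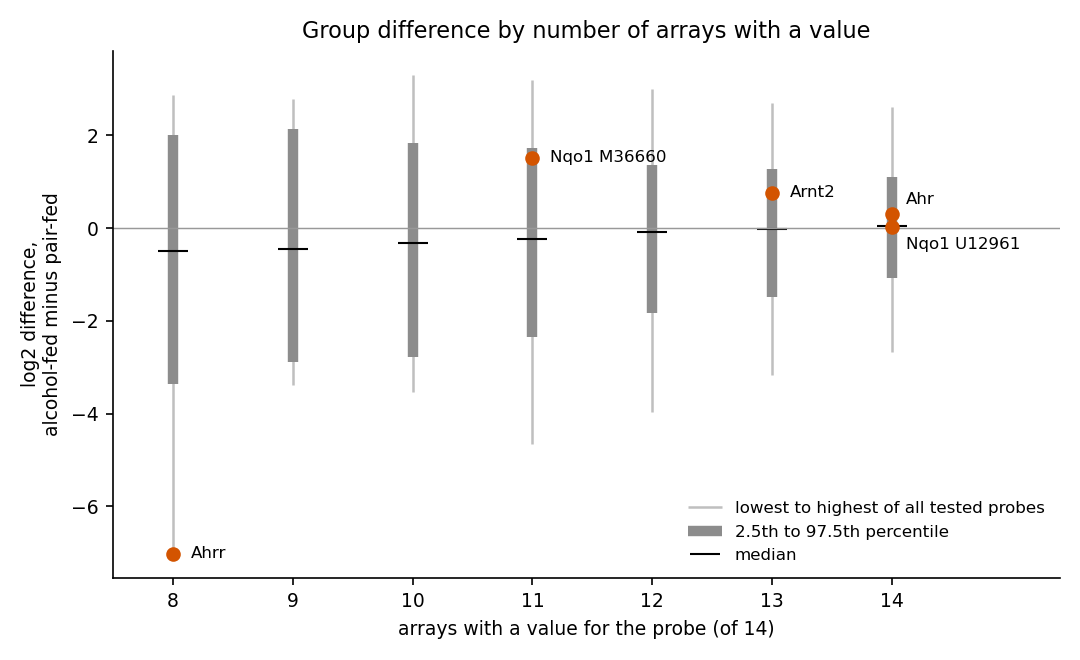
Difference between group means (alcohol-fed minus pair-fed, log2 scale) against the number of arrays on which a probe had a value, with thin lines from the lowest to the highest tested probe, thick bars for the central percentile range named in the key, ticks at the median and the tested members as points. The spread widens towards few values, and Ahrr at -7.02 is the lowest point among probes with 8 values.

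Ahr, the receptor itself, had a value on all 14 arrays, and its values lay on both sides of the reference in both groups. On alcohol-fed arrays 1 to 7 its log2 ratio was 0.37, -0.20, 0.75, 0.46, 0.18, -0.42 and 2.04. On pair-fed arrays 1 to 7 it was -1.24, 0.95, 0.51, 0.31, 0.45, 0.14 and -0.06. Alcohol-fed 7 was the highest and pair-fed 1 the lowest array, and the ranges overlapped, with 5 of 7 arrays above 0 in each group. The group means were 0.45 ± 0.81 (SD, n = 7) and 0.15 ± 0.69 (SD, n = 7). Neither passed against the reference (limma adjusted p 0.289 and 0.754), with 95% intervals from -0.20 to 1.11 and from -0.50 to 0.80. The difference between the groups was 0.30 ± 0.44 (limma SE). Among the tested members Ahr had the smallest SD over arrays, 0.74, against a median of 0.96 over all tested probes.

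Arnt, the partner that Ahr needs for DNA binding and that also serves the hypoxia-inducible factors, had values on 7 arrays only. Its log2 ratio was -1.72, -1.48, -4.61 and -1.77 on alcohol-fed arrays 1, 2, 4 and 6, and 1.27, -2.35 and 0.64 on pair-fed arrays 1, 3 and 6. All 4 alcohol-fed values were below 0 and the ranges overlapped, since pair-fed 3 was lower than 3 of the alcohol-fed arrays. The means were -2.39 ± 1.48 (SD, n = 4) and -0.15 ± 1.93 (SD, n = 3). With 3 pair-fed values Arnt fell short of the minimum of 4 per group and was not in the main test. When probes with at least 2 values per group were admitted, Arnt was lower than the reference in alcohol-fed fetuses (-2.39 ± 0.68, limma SE, adjusted p 0.0296) and did not pass in pair-fed fetuses (-0.15 ± 0.78, limma adjusted p 0.912). The first call ended without alcohol-fed 1 (-2.62, limma adjusted p 0.0523), alcohol-fed 4 (-1.65, 0.119) or alcohol-fed 6 (-2.60, 0.0550). The difference between the groups, which shares its contrast with the choice of members, was -2.25.

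Ahrr and Arnt lacked values on much the same arrays. Both were at 0 on 5 arrays, alcohol-fed 3 and 7 and pair-fed 2, 4 and 7, and both had a value on 6. At least 6 placeholders were found in 3.28% of all probes, and 68.0% had none. Alcohol-fed 4 was the lowest array of its group for Ahrr, for Arnt and for 1 of the Nqo1 probes. On the 6 shared arrays Arnt and Ahrr were both low on alcohol-fed 2, 4 and 6, while on pair-fed 3 Arnt stood at -2.35 and Ahrr at 3.33.

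Arnt2, the paralogue of Arnt that is prominent in the nervous system and the developing hypothalamus, had a value on 13 arrays. On alcohol-fed arrays 1 to 7 its log2 ratio was 1.30, -0.95, -1.17, -0.03, -0.34, 2.37 and -0.22. On pair-fed arrays 1 to 5 it was -0.17, 0.43, -1.33, -0.61 and -0.51, pair-fed 6 held an exact 0, and pair-fed 7 stood at -1.58. Alcohol-fed 1 and 6 were the 2 highest arrays, and the other 5 alcohol-fed arrays lay within the pair-fed range. The means were 0.14 ± 1.26 (SD, n = 7) and -0.63 ± 0.74 (SD, n = 6), and neither passed against the reference (limma adjusted p 0.818 and 0.291). Their 95% intervals ran from -0.68 to 0.95 and from -1.51 to 0.25. The difference between the groups was 0.76 ± 0.57 (limma SE).

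Nqo1 encodes a quinone reductase that both Ahr and the oxidative stress factor Nrf2 can induce. Its probe U12961 had a value on every array, from -0.55 to 1.68 with a median of 0.30 in alcohol-fed and from -1.22 to 1.5 with a median of 0.17 in pair-fed fetuses. The means of 0.34 ± 0.85 (SD, n = 7) and 0.31 ± 0.96 (SD, n = 7) did not pass against the reference (limma adjusted p 0.488 and 0.540). Between the groups the difference was 0.03 ± 0.49 (limma SE).

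The other Nqo1 probe, M36660, gave another pattern on the same RNA. Its log2 ratio was 0.66, -0.24, -1.17, -3.28, 2.69 and -0.29 on alcohol-fed arrays 1 to 5 and 7, and -0.11, -2.76, -1.91, -0.85 and -3.35 on pair-fed arrays 1, 2, 3, 5 and 6. All 5 pair-fed values were below 0, and they lay within the alcohol-fed range but for pair-fed 6. The pair-fed mean of -1.79 ± 1.33 (SD, n = 5) did not pass against the reference (limma adjusted p 0.0625), nor did the alcohol-fed mean of -0.27 ± 1.97 (SD, n = 6, limma adjusted p 0.762). The pair-fed mean passed without alcohol-fed 4 (-1.79, limma adjusted p 0.0345), alcohol-fed 5 (-1.79, 0.0363) or pair-fed 1 (-2.22, 0.0481). The difference between the groups was 1.52 ± 0.89 (limma SE). Over the 11 arrays where both Nqo1 probes had a value they correlated at r = -0.29 (permutation p 0.393, 100000 resamples) and rho = -0.37 (permutation p 0.26, 20000 resamples), both two-sided and the only correlation tested. Without the 2 arrays farthest from the median r was -0.35. The probes had the same sign on 4 of 11 arrays and differed by a median of 2.61 on the log2 scale, so a single Nqo1 response cannot be read from them.

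Against the reference, limma thus called 0 of the 4 tested member probes other than Ahrr in either group. Over all probes 23.5% were called in alcohol-fed fetuses (8.02% higher, 15.5% lower) and 21.3% in pair-fed fetuses (7.86% higher, 13.5% lower). Both comparisons use the same reference pool, 1 control sample that brings no spread of its own into the tests, and the dyes were never swapped, which leaves dye and sample inseparable. Of the calls, the higher numbered 1675 and the lower 3238 in alcohol-fed fetuses, and 1641 and 2809 in pair-fed fetuses. With values as deposited these became 1948 and 2458, and 1855 and 2053, and the median of all probes moved from 0.01 to 0.14 and from -0.03 to 0.09. With quantile normalization they were 2894 and 3047, and 2321 and 2476. Among probes with 14 values they were 1675 and 1655, and 1776 and 1696.

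The wider pathway was described by 5 lists of 89 other genes, of which 70 were on the array and 63 had a tested probe. A gene is counted as risen or fallen if any of its tested probes was called in that direction. Genes with several probes thus have more chances to count, while the shares given beside the counts are of probes. The limits of the single reference pool and of the unswapped dyes, given above, hold for each rise and fall below. In alcohol-fed fetuses 5 genes rose and 14 fell against the reference, with 26.8% of 71 probes called, and in pair-fed fetuses 5 rose and 9 fell, with 21.1% called. Both pooled shares were within 4 percentage points of those over all probes given above, while the single lists ran from 7.69% to 46.2% in alcohol-fed and from 7.69% to 30.8% in pair-fed fetuses. The median log2 ratio of the 71 probes was 0.02 in alcohol-fed and -0.01 in pair-fed fetuses, against 0.01 and -0.03 over all tested probes. None was called between the groups, and their median difference was 0.02.

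Among 10 tested target genes of the receptor, 2 rose and 4 fell in alcohol-fed fetuses and 0 rose and 3 fell in pair-fed fetuses. Of their 13 probes 46.2% and 30.8% were called, against 23.5% and 21.3% over all probes. Cyp1a1, the hydrocarbon hydroxylase that is the classical readout of the receptor, had 2 probes that disagreed. Probe M33935 ranged from 0.31 to 1.92 over 7 alcohol-fed arrays (median 1.18) and from -0.20 to 1.56 over 7 pair-fed arrays (median 1.06). It rose in alcohol-fed fetuses (1.14 ± 0.28, limma SE, adjusted p 0.00803) and stood at 0.79 ± 0.28 in pair-fed fetuses (limma adjusted p 0.0511). The latter passed without pair-fed 4 (0.94, limma adjusted p 0.0407) or pair-fed 7 (0.96, 0.0302), with quantile normalization (0.94, 0.0241), with array weights (0.85, 0.0407) and among probes with values on all 14 arrays (0.79, 0.0437). Probe NM_009992 stood at -0.61 ± 0.50 and -0.49 ± 0.54 (limma SE) and passed in neither group.

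Ugt1a6a, a glucuronosyltransferase induced by the receptor, was below the reference on all 14 arrays, at -2.23 ± 0.30 in alcohol-fed and -2.39 ± 0.30 in pair-fed fetuses (limma SE, adjusted p 4.9e-05 and 2.5e-05). Tiparp, an ADP-ribosyltransferase that is induced by the receptor and represses it, fell in both groups (-1.78 ± 0.54 and -2.02 ± 0.54, limma SE, adjusted p 0.0251 and 0.0142). It was below 0 on 7 of 7 alcohol-fed and 6 of 7 pair-fed arrays. Its call in alcohol-fed fetuses ended without alcohol-fed 1 (-1.56, limma adjusted p 0.0706), 4 (-1.73, 0.0573), 6 (-1.57, 0.0703) or 7 (-1.71, 0.0561) and with values as deposited (-1.66, 0.0592). Cyp1b1, another target gene chosen after its values were seen, had 6 alcohol-fed but 2 pair-fed values and was not tested. Serpinb2, a serine protease inhibitor gene, had 3 probes. AJ000343 fell in both groups (-1.66 ± 0.50 and -2.33 ± 0.54, limma SE, adjusted p 0.0243 and 0.00626), NM_011111 stood at -1.20 in alcohol-fed (limma adjusted p 0.0758, and 0.0295 without pair-fed 4) and -1.91 in pair-fed fetuses (0.00621), and AF069695 stood at -0.14 and -0.01. The alcohol-fed call of AJ000343 ended without alcohol-fed 4 (-1.63, limma adjusted p 0.0539), 5 (-1.59, 0.0553) or 6 (-1.36, 0.0761) and with values as deposited (-1.54, 0.0511).

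Of 9 tested genes of the cytosolic complex and of receptor turnover, 1 rose and 1 fell in each group. Of their 9 probes 22.2% were called in both, against 23.5% and 21.3% over all probes. Ptges3, the co-chaperone p23 of the Hsp90 complex, rose on all 14 arrays, by 2.09 ± 0.51 and 2.05 ± 0.51 (limma SE, adjusted p 0.00815 and 0.0098). Without the 3 arrays with most placeholders its pair-fed value was 1.33 (limma adjusted p 0.0527). Xpo1, the nuclear export receptor, was lower on all 11 arrays with a value, at -1.79 ± 0.38 and -1.39 ± 0.41 (limma SE, adjusted p 0.00387 and 0.0269). Its pair-fed call ended without pair-fed 3 (-1.32, limma adjusted p 0.0636), 5 (-1.02, 0.115) or 6 (-1.24, 0.0721). Fkbp4, an immunophilin of the Hsp90 complex, stood at 0.80 and 0.85 (limma adjusted p 0.0673 and 0.057), and passed under 4 of 24 other settings in alcohol-fed and 5 in pair-fed fetuses. Ddb1, a ubiquitin ligase adaptor, stood at 0.90 and 0.17 (limma adjusted p 0.0689 and 0.753), and passed under 5 settings in alcohol-fed fetuses. The count of 1 risen gene in this list thus depends on the processing.

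Among 16 tested genes of other proteins with PAS domains, 1 rose and 4 fell in alcohol-fed fetuses. In pair-fed fetuses 2 rose and 3 fell. Of 17 probes 29.4% were called in each group, against 23.5% and 21.3% over all probes. Ncoa3, a coactivator of nuclear receptors with the same domains, stood far above the reference, at 4.15 to 5.59 on alcohol-fed arrays (median 4.96) and 3.66 to 6.08 on pair-fed arrays (median 4.59). Its means were 4.93 ± 0.31 and 4.91 ± 0.31 (limma SE, adjusted p 2.4e-09 and 2.2e-09). The circadian factor Clock was below it on all 14 arrays, at -1.42 ± 0.33 and -1.36 ± 0.33 (limma SE, adjusted p 0.00588 and 0.00844). The neuronal factor Npas1 fell in both groups (-1.84 ± 0.56 and -2.84 ± 0.56, limma SE, adjusted p 0.0292 and 0.00305) on 5 arrays each. Its alcohol-fed call ended without alcohol-fed 2 (-1.85, limma adjusted p 0.0617), 4 (-1.88, 0.0615), 5 (-1.52, 0.0985) or 6 (-1.59, 0.0926), with values as deposited (-1.58, 0.0634) and with zeros kept (-1.27, 0.104). Sim2, a developmental PAS factor, fell in alcohol-fed fetuses (-1.59 ± 0.43, limma SE, adjusted p 0.0157) and stood at -1.18 in pair-fed fetuses (0.0837). The former call ended without alcohol-fed 2 (-1.25, limma adjusted p 0.0565) or 3 (-1.38, 0.0547).

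Of 15 tested coactivators and corepressors, 1 rose and 4 fell in alcohol-fed and 1 rose and 2 fell in pair-fed fetuses. Of their 19 probes 26.3% and 15.8% were called, against 23.5% and 21.3% over all probes. Med1, a Mediator subunit that coactivates the receptor, was lower on all 13 arrays with a value, at -3.18 ± 0.36 and -2.85 ± 0.39 (limma SE, adjusted p 8.3e-06 and 8.0e-05). The general factor Sp1 had a probe that fell in both groups on 4 arrays each (AK003347, -2.68 ± 0.66 and -4.76 ± 0.66, limma SE, adjusted p 0.0136 and 0.000396) and another at -0.57 and -0.72 that passed in neither. The alcohol-fed call of AK003347 ended without alcohol-fed 5 (-2.35, limma adjusted p 0.0558) and with zeros kept (-1.45, 0.18). Of 3 probes of the estrogen receptor gene Esr1, NM_007956 fell in alcohol-fed fetuses (-2.30 ± 0.52, limma SE, adjusted p 0.00558) and stood at -1.36 in pair-fed fetuses (0.0715). The pair-fed value passed with array weights (-1.79, limma adjusted p 0.0236), without pair-fed 6 (-1.86, 0.0165) and without the 3 arrays with most placeholders (-1.95, 0.032), and was -0.81 without pair-fed 1. Esr1 probe AJ272161 stood at -1.93 and -1.57 (limma adjusted p 0.054 and 0.146). It passed in alcohol-fed fetuses without alcohol-fed 5 (-2.47, 0.0268) and in pair-fed fetuses without alcohol-fed 7 (-1.57, 0.02), and its alcohol-fed value was -0.94 without alcohol-fed 7. The last Esr1 probe, AJ272163, stood at 0.02 and -0.54. Rela, an NF-kappaB subunit that binds Ahr, rose in pair-fed fetuses (0.99 ± 0.30, limma SE, adjusted p 0.0267), a call that ended without pair-fed 5 (0.80, 0.091) or 7 (0.96, 0.0531). Of 13 probes of genes around Nrf2, 7.69% were called in each group, against 23.5% and 21.3% over all probes. Among the 13 tested genes, 0 rose and 1 fell in alcohol-fed fetuses and 1 rose and 0 fell in pair-fed fetuses. The first was Slc7a11, the cystine transporter, at -1.91 ± 0.46 (limma SE, adjusted p 0.00821), with a pair-fed value of -0.63 ± 0.50 (0.381). The second was Mafg, a small Maf partner of Nrf2, at 1.6 ± 0.34 (limma SE, adjusted p 0.00365), with an alcohol-fed value of 0.39 ± 0.32 (0.373). Limma called neither gene between the groups. Srxn1, the sulfiredoxin gene, stood at 0.59 and 0.42 (limma adjusted p 0.176 and 0.36), and Bach1, a repressor of Nrf2 targets, at -0.73 and -0.33 (0.151 and 0.537). The alcohol-fed value of Bach1 passed with array weights (-1.01, limma adjusted p 0.0252), without alcohol-fed 6 (-1.09, 0.0279) and without the 3 arrays with most placeholders (-1.09, 0.0262). Nfe2l2, which encodes Nrf2 itself and was chosen after its values were seen, had 3 alcohol-fed values and was not tested.

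**Figure D3:**
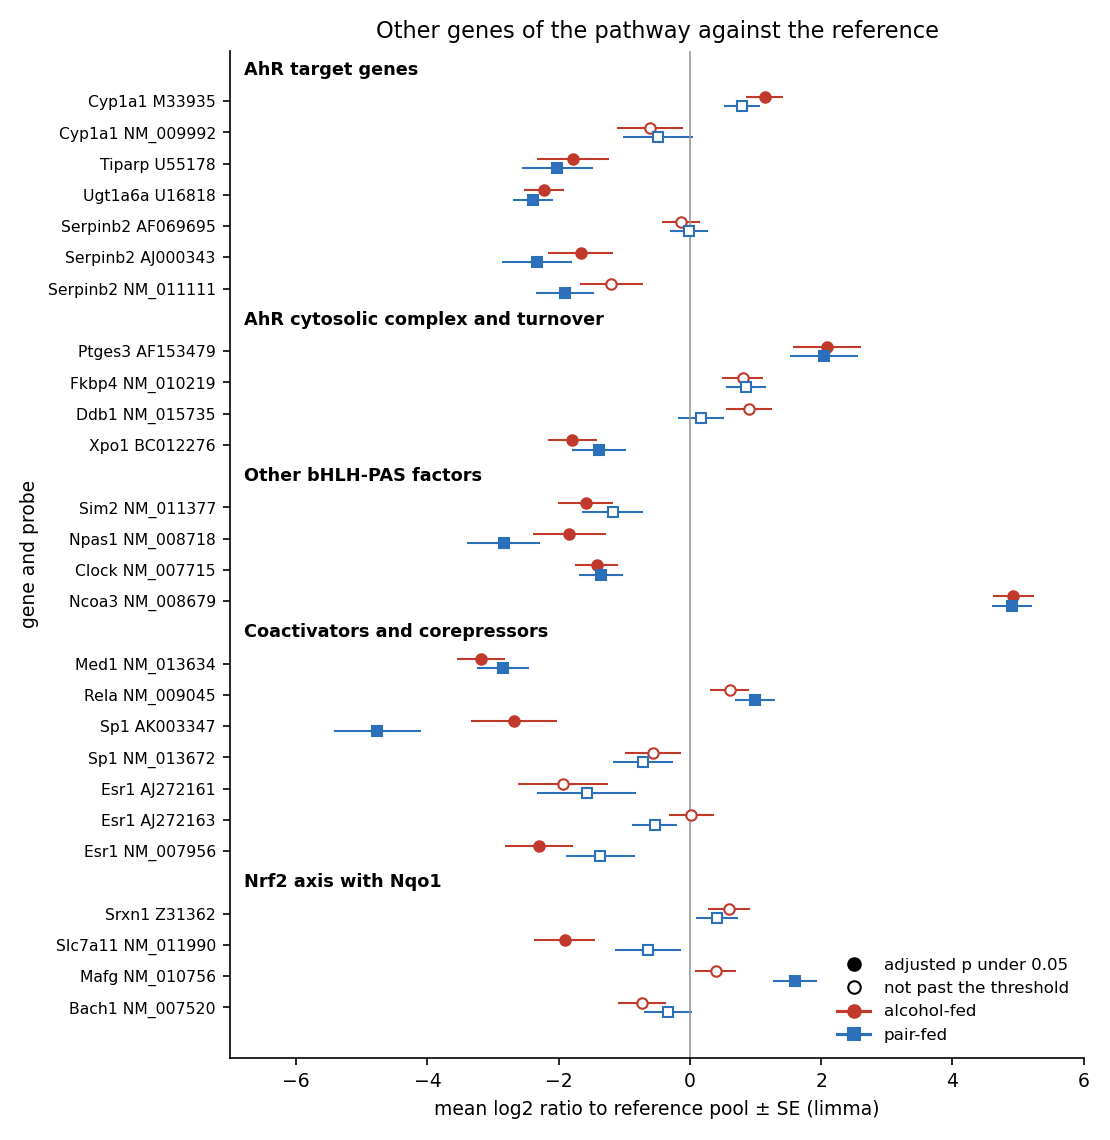
Mean log2 ratio to the reference pool ± limma SE of the named genes of the wider pathway, 1 line per probe, with circles for alcohol-fed and squares for pair-fed arrays, filled where the adjusted p was under 0.05. The groups lie close together for most probes, as for Ncoa3 at 4.93 and 4.91 and Ugt1a6a at -2.23 and -2.39.

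Markers of tissues that the samples could hold were counted in the same way, since the tissue is not labelled. Of 33 tested markers of liver, lung, brain, skeletal muscle, erythroid cells, placenta and keratinocytes, 2 rose and 9 fell in alcohol-fed fetuses. In pair-fed fetuses 7 fell, 1 rose, and the 2 probes of Gad2 passed in opposite directions. Of 36 marker probes 30.6% and 27.8% were called, against 23.5% and 21.3% over all probes. In alcohol-fed fetuses 2 of 3 placenta markers rose, while 3 of 4 skeletal muscle and 3 of 6 lung markers fell. There 1 of 7 brain, 1 of 3 erythroid and 1 of 4 keratinocyte markers also fell, and 0 of 6 liver markers were called. In pair-fed fetuses 1 of 3 placenta markers rose, while 2 of 4 skeletal muscle and 3 of 6 lung markers fell. There 1 of 3 erythroid and 1 of 6 liver markers also fell, and 0 of 4 keratinocyte markers were called. Psg23, a placenta marker chosen after its values were seen, counts as risen through 1 probe (1.40 in alcohol-fed fetuses). Its other probe stood at 0.08. Tfrc and Gad2, also chosen after their values were seen, fell in alcohol-fed fetuses through 1 probe each (-2.99 and -3.32). Their other probes stood at 0.12 and 0.13. In pair-fed fetuses Tfrc fell through the same probe (-2.34), with the other at -0.03. These counts do not give a direction for a tissue. Between the groups 0 markers were called. A ratio to a pool gives no level, so these values do not say which tissue was sampled, and the part of tissue makeup in the Ahrr values was not tested.

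The genes whose pattern over arrays was most like a member were sought among named probes with a value on every array where the member had one. For Ahrr these were 4930581F22Rik (r = 0.94), the integrin gene Itga9 (r = 0.93) and the actin regulator Daam1 (r = 0.93), over 8 arrays and 12507 probes. For Ahr they were Ptpn13 (r = 0.82), Lims2 (r = 0.80) and the vomeronasal receptor gene Vmn1r47 (r = 0.79), over 14 arrays. For Arnt2 they were Pantr2 (r = 0.89), 4930547E08Rik (r = 0.86) and Phc2 (r = 0.86), over 13 arrays, and for the Nqo1 probe U12961 Acad8 (r = 0.93), Kif7 (r = 0.90) and Dtd2 (r = 0.85), over 14. The points share arrays and the reference pool, each set is the top of all candidate probes, and Arnt with 7 values was not ranked. Group means were not removed, so r for Ahrr also carries the group difference on which Ahrr was chosen. Its SD was 4.23 over arrays and 2.11 within groups.

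**Figure D4:**
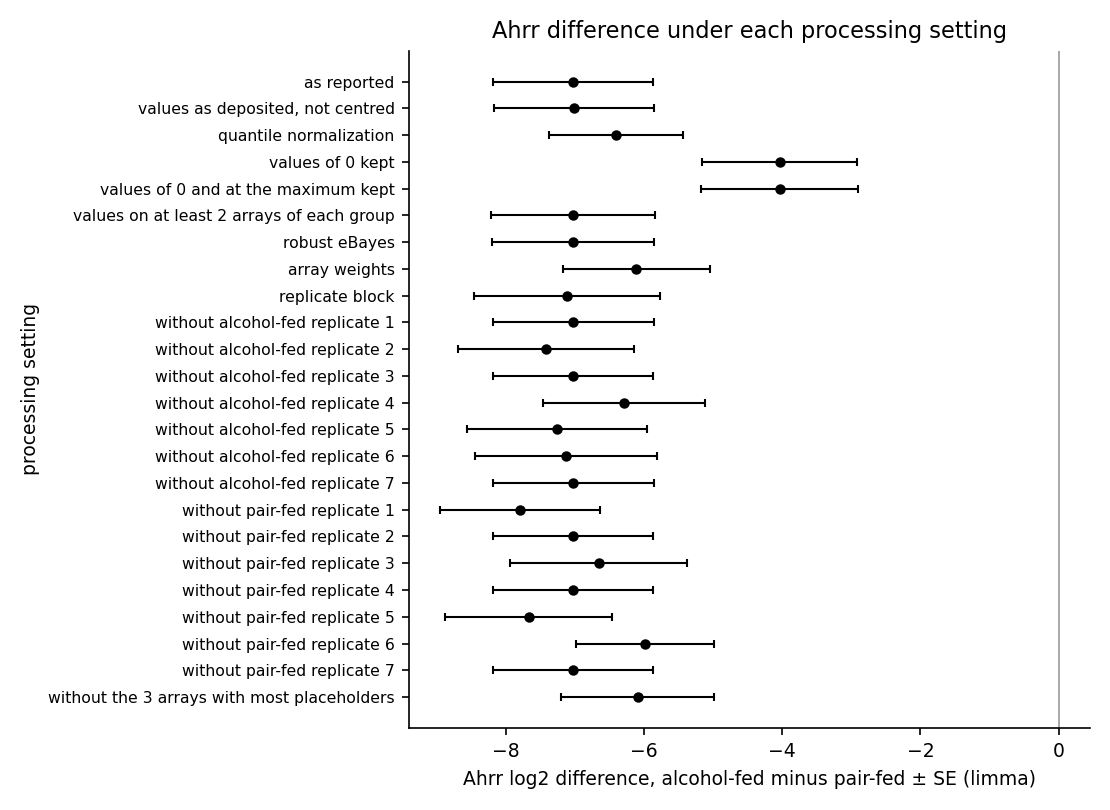
Difference of Ahrr between alcohol-fed and pair-fed fetuses ± limma SE on the log2 scale, 1 line per processing setting, with no difference at 0. The difference lies near -7.02 under most settings and nearest to 0, at -4.04, where exact zeros were kept as measured ratios.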

How the data were processed

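Per the labels' protocols, an Ambion miRNA isolation kit gave the total RNA, and a Genisphere kit the Cy3 and Cy5 label. The authors deposited 1 table of log2 ratios, 21582 probes by 14 arrays; the unit is read from the values, and no source used here names the scanner, background correction or normalization. Brightness is unknown, and the number of arrays limits the precision.

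Exact zeros and values at 16.61 were set to missing and arrays centred on their median. Probes with values on at least 4 arrays per group (20876; 706 left out) were fitted in R 4.3.3 by lmFit and eBayes of limma 3.58.1 (14 arrays, two-sided, Benjamini-Hochberg over all probes, adjusted p under 0.05). The limma SE pools both groups, and n is the number of arrays with a value. In simulated data on 20876 probes with 200 changed 4-fold, limma recovered 82.5% (alcohol-fed against reference), 72.0% (pair-fed against reference) and 24.5% (between groups). The simulated noise was normal and independent between probes and arrays, so these shares hold for that setting and are not the power of the real data.

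Names come from the platform annotation: 16635 probes had 1 symbol, 113 several and 4834 none, and 15957 matched RefSeq gene numbers. The accessions of 4 member probes are still RefSeq transcripts of their gene; both Nqo1 probes matched by gene number only. The members and lists were chosen with earlier results of these data known. The rule for naming was every member probe, and of each pathway list at most 4 genes with the smallest p against the reference. Other genes of the pathway lists are said to be chosen after their values were seen. Markers, genes with wide group differences and genes most like a member were named for their values. Other settings were values as deposited, quantile normalization, placeholders kept, stricter and looser filters, robust eBayes, array weights, a replicate block and leaving out arrays.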

Additional observations from a re-analysis of the deposited data

Results flagged for a closer look

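Of the 11 sets of 4 to 7 values that a member probe gave within a group, 1 held an array far from the others. For Arnt, alcohol-fed 4 at -4.61 was the lowest of 4 values, and its gap to the next took 0.906 of the range, above the limit of 0.829. Chance marks about 1 in 20 such sets. The same array was the lowest alcohol-fed value of Ahrr, at -6.997, where its gap took 0.745 of the range and stayed below that limit.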

How the results depend on the processing

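The Ahrr difference was negative under all 23 other settings that gave it a value; since its groups do not overlap, leaving out arrays could not turn its sign. It moved most where exact zeros were kept, alone (-4.04) or with values at the table's maximum (-4.04); by construction, zeros of 6 arrays then enter the means. Leaving out 1 array gave -7.79 to -5.98, and quantile normalization -6.41. With values required on all 14 arrays Ahrr could not be fitted. The counts of called probes stayed within 1.5 times of the main count under every setting. Leaving out 1 array gave 3605 to 5344 calls in alcohol-fed and 3266 to 4889 in pair-fed fetuses against the reference. Between the groups 0 were called under every setting. The direction of the untested or uncalled member values near 0, such as Arnt2 in alcohol-fed fetuses (-0.24 to 0.35 without 1 array), is not settled. Same-numbered arrays of the groups were not treated as pairs in the main fit. Their deviations from the group means correlated at r = -0.10 to 0.23. Of the arrays, 2 of 7 alcohol-fed and 2 of 7 pair-fed correlated best with their own number. Such correlations cannot show whether the mothers were matched by number. With the replicate block the counts were 4922, 4449 and 0, and the Ahrr difference was -7.11. Leaving out the 3 arrays with most placeholders (alcohol-fed 6, pair-fed 6 and 7), a setting chosen after seeing the data, gave 4799 and 3814 calls against the reference and an Ahrr difference of -6.09. The looser filter combined with left-out arrays for Arnt was also chosen after seeing the data. Array brightness is unknown, so no value can be set against its background.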

Other observations

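Further target genes of the receptor that passed in 1 group, chosen after their values were seen, were Aldh3a1, an aldehyde dehydrogenase, at -2.92 in alcohol-fed (limma adjusted p 0.0388) and -0.60 in pair-fed fetuses (0.606), and Gsta4, a glutathione transferase, at 0.95 (0.0362) and 0.38 (0.397). Nrip1, a corepressor of nuclear receptors, stood at -2.57 (limma adjusted p 0.0256) and -0.89 (0.467), and Per3, a circadian PAS protein, at -1.32 (0.0387) and 0.06 (0.941). Aldh3a1 had 4 alcohol-fed and 6 pair-fed values. Nrip1 had 5 and 4, and its alcohol-fed values ran from -6.69 to 0.15. How far the calls in this paragraph rest on single arrays is not given here. Relb, an NF-kappaB subunit, stood at 1.15 (limma adjusted p 0.0351) and 0.78 (0.141). In pair-fed fetuses the hypoxia-inducible factor genes Epas1, at 1.31 (limma adjusted p 0.033) against 0.89 (0.122), and Hif3a, at -1.15 (0.0261) against -0.69 (0.0926), passed. Limma called none of these between the groups, so a difference of response is not shown.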
